A study of Mus musculus with 12 samples.

Results

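Levels of 9 genes of matrix proteolysis, the metalloproteinases Mmp2, Mmp7, Mmp9 and Mmp14, their tissue inhibitors Timp1, Timp2 and Timp3, the protease urokinase (Plau) and its receptor (Plaur), were read in 12 RNA sequencing libraries of renal primary tubular epithelial cells. The 9 genes were taken by symbol from a table of 44792 gene symbols, of which 31235 had a count in any library, and all 9 passed the filter on low counts that left 17019 genes for testing. The cells came from the kidney cortex of C57BL/6 mice, with 3 libraries for each of 4 genotypes and, per the series' design text, 3 mice of each. Those labelled WT were Setd2fl/fl without Cre. Those labelled SETD2-KO were Ksp1.3/cre; Setd2fl/fl, those labelled MYC-OE were Ksp1.3/cre; MYCfl/fl, and those labelled MYC-OE SETD2-KO were Ksp1.3/cre; MYCfl/fl;Setd2fl/fl. The floxed Setd2 allele is thus in every group other than MYC-OE, and Cre, driven by the Ksp-cadherin promoter of kidney tubular epithelium, is in every group other than WT. MYC-OE and WT therefore differ in the MYC construct, in Cre and in the floxed Setd2 allele.

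Matrix metalloproteinases are zinc enzymes that are made as inactive precursors and cut collagens, laminins and many cell surface proteins. Tissue inhibitors of metalloproteinases bind their active sites, and Timp2 also takes part, with Mmp14 at the cell surface, in the activation of the Mmp2 precursor. Urokinase is a serine protease that turns plasminogen into plasmin, and its receptor holds it at the cell surface. In the kidney these systems take part in the turnover of the tubular basement membrane and in the response to injury.

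Total counts ranged from 22997852 to 44227191 in WT, 16657538 to 41608501 in SETD2-KO, 15712963 to 17132375 in MYC-OE and 8889185 to 14314434 in MYC-OE SETD2-KO. Mitochondrial ribosomal RNA split the libraries into 3 sets, given here since several of the 9 genes follow them. They are called counting sets as a name only. No source used here says what sets them apart, and the cause was not tested. Set 1 (15015.6 to 19622.1 CPM, counts relative to the library's total) held all WT libraries and SETD2-KO 1 and 2, set 2 (974.8 to 2909.2 CPM) held MYC-OE 1 and MYC-OE SETD2-KO 1 and 2, and set 3 (0.5 to 1.3 CPM) held SETD2-KO 3, MYC-OE 2 and 3 and MYC-OE SETD2-KO 3. Xist was read, and transcripts of the Y chromosome were not, in SETD2-KO 3 and MYC-OE SETD2-KO 1 and 3. Setd2, the targeted gene, stood at 70.94 to 86.42 CPM in WT, 58.85 to 78.98 in SETD2-KO, 56.81 to 62.13 in MYC-OE and 51.12 to 80.57 in MYC-OE SETD2-KO, and none of its differences was called. Its counts cover the whole gene, so genotypes were taken from the labels. The level of Myc was 3.11 to 3.44 CPM in WT and 3.22 to 4.89 in MYC-OE (0.32 ± 0.52, edgeR adjusted p = 0.669). No source used here says if reads of the MYC construct count towards this gene. Summed proximal tubule markers (10 genes) stood at 22690 to 26340 CPM in WT, and podocyte markers (6 genes), of a cell type outside the tubule, at 821.3 to 1508 CPM.

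Below, levels are CPM after edgeR's TMM scaling (trimmed mean of M values). Differences are log2 fold changes ± SE with n = 3 libraries per group from edgeR's quasi-likelihood test, p-values are Benjamini-Hochberg adjusted over all 17019 genes, and a gene is called at an adjusted p under 0.05. A second fit with a term for the counting set stands beside the fit by group where it matters. Its values for MYC-OE against WT and for MYC-OE SETD2-KO against SETD2-KO rest on 1 library, SETD2-KO 3, which links set 1 to the others and is also of the other sex than the rest of its group. No set holds both WT and MYC-OE, so no value within a set exists for that comparison.

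Mmp2 (chromosome 8, 92827292 to 92853420, + strand, on GRCm38 as for all positions of the authors' table here), the gelatinase that cuts type IV collagen, stood at 3.17, 2.67 and 3.53 CPM in WT 1, 2 and 3. It stood at 5.36, 3.4 and 3.33 CPM in SETD2-KO, 5.91, 16.79 and 26.62 CPM in MYC-OE, and 7.7, 3.41 and 12.03 CPM in MYC-OE SETD2-KO. The order of the group means was MYC-OE (16.44 ± 10.36 CPM, SD, n = 3), MYC-OE SETD2-KO (7.713 ± 4.31), SETD2-KO (4.029 ± 1.15) and WT (3.125 ± 0.4301), and each group overlapped its neighbour in that order, while all MYC-OE libraries lay above all WT libraries.

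Mmp9 (chromosome 2, 164940750 to 164955850, + strand), the other gelatinase, which neutrophils and macrophages make in quantity, stood at 0.35, 0.16 and 0.57 CPM in WT and 0.42, 0.9 and 1.42 CPM in SETD2-KO. In MYC-OE it stood at 0.63, 5.77 and 5.85 CPM and in MYC-OE SETD2-KO at 2.53, 2.9 and 5.93 CPM. Every MYC-OE SETD2-KO library was above every SETD2-KO library, and MYC-OE 1 was near the highest WT library.

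Mmp14 (chromosome 14, 54431604 to 54441258, + strand), the membrane-anchored protease that activates the Mmp2 precursor, stood at 5.36, 4.42 and 7.15 CPM in WT and 6.17, 5.63 and 11.8 CPM in SETD2-KO. It stood at 9.18, 41.25 and 48.41 CPM in MYC-OE and 10.9, 9.85 and 56.79 CPM in MYC-OE SETD2-KO. The high libraries, at 41.25 to 56.79 CPM, were the 3 libraries of set 3 with the MYC construct, and the set 3 library without it, SETD2-KO 3, stood at 11.8 CPM.

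Mmp7 (chromosome 9, 7692111 to 7699416, + strand), the small secreted metalloproteinase matrilysin, had 0, 0 and 5 counts in WT, 0, 0 and 4 in SETD2-KO, 41, 1296 and 1791 in MYC-OE, and 0, 0 and 1359 in MYC-OE SETD2-KO. In CPM these were 2.16, 57.11 and 70.32 in MYC-OE, 74.64 in MYC-OE SETD2-KO 3, and 0.14 and 0.22 in the WT and SETD2-KO libraries that had a count. Mmp7 was therefore near 0 in all 6 libraries without the MYC construct, in either counting set, and present in 4 of the 6 with it. The 0 counts in MYC-OE SETD2-KO 1 and 2, where 3 counts would be 0.3302 and 0.3787 CPM, leave room for a level below that. As a share of all counts it was 1250 times higher in MYC-OE than in WT (95% exact interval 535 to 3850) and, within set 3, 393 times higher in MYC-OE 2 and 3 than in SETD2-KO 3 (153 to 1440) and 395 times higher in MYC-OE SETD2-KO 3 than in SETD2-KO 3 (154 to 1450). These intervals cover counting error only. MYC-OE 2 and 3 held Y-chromosome transcripts and SETD2-KO 3 did not, so those libraries also differ in sex. The gene AV064505 overlaps 123 exon bases of Mmp7 on the other strand and stood at no more than 0.14 CPM (scaled by total counts).

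**Figure D1:**
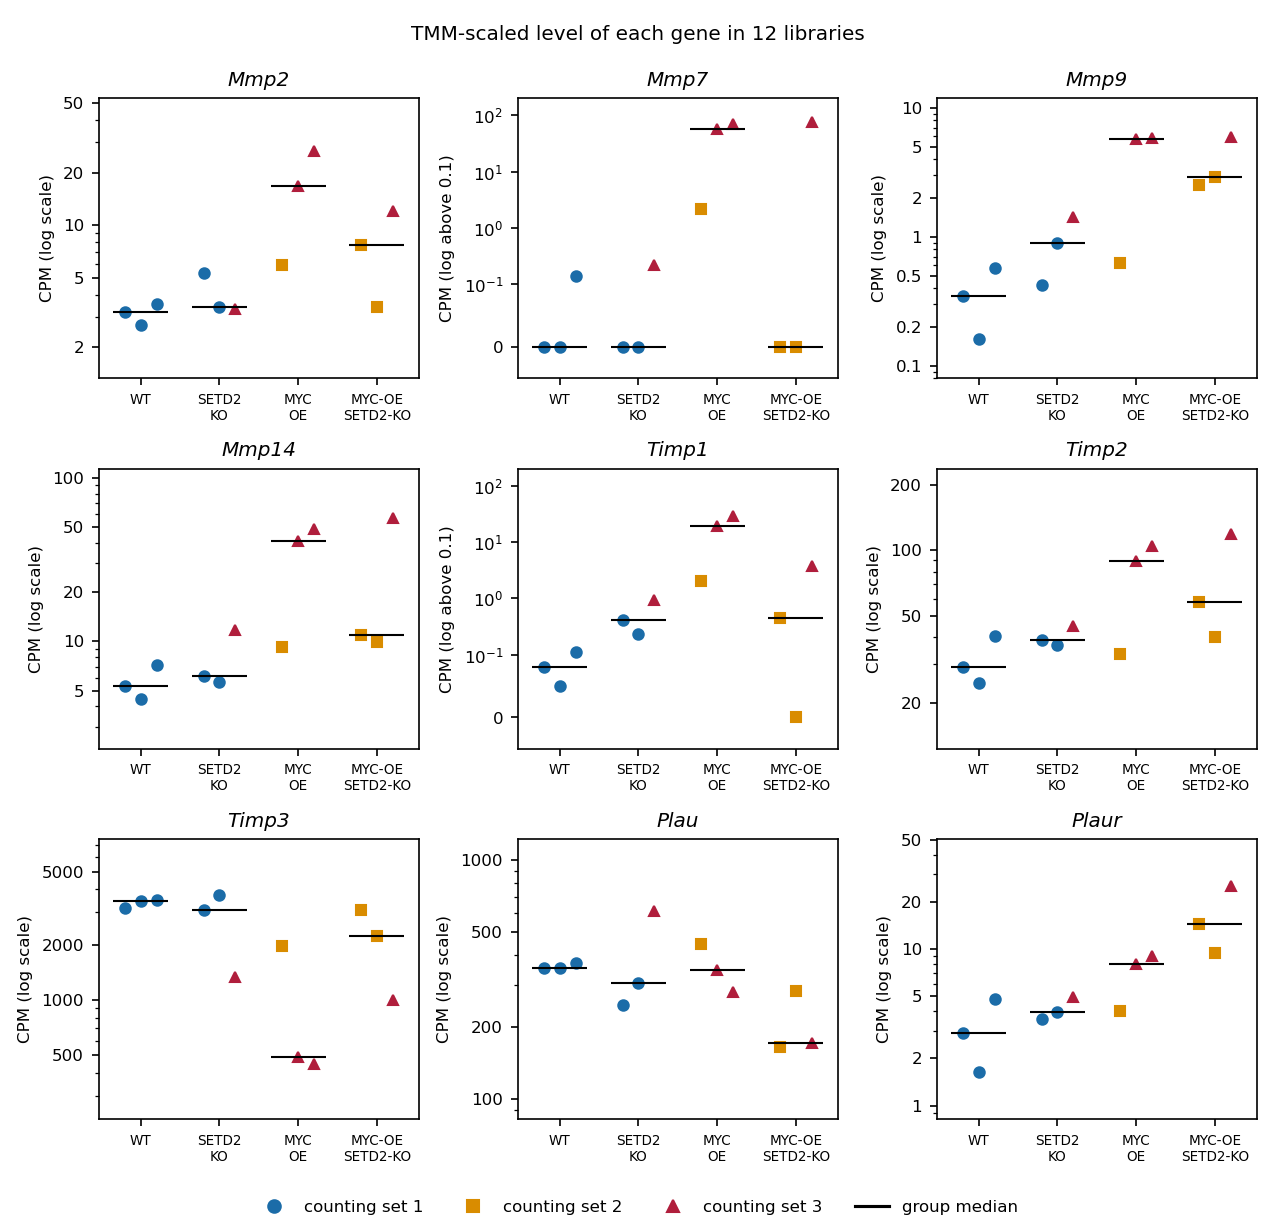
TMM-scaled CPM (log axis, linear near 0 for Mmp7 and Timp1) of the 9 genes in 12 libraries by group. Each point is 1 library, its shape and colour give the counting set, and the bar is the median of 3. Mmp7 reached 57.11 to 74.64 CPM only in MYC-OE 2 and 3 and MYC-OE SETD2-KO 3, and Timp3 was lowest in MYC-OE 2 and 3.

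Timp1 (chromosome X, 20870166 to 20874737, + strand), the inducible inhibitor, was near the floor in WT, with 2, 1 and 4 counts (0.08, 0.05 and 0.11 CPM). It had 12, 8 and 17 counts in SETD2-KO (0.42, 0.23 and 0.93 CPM) and 39, 445 and 728 in MYC-OE (2.06, 19.61 and 28.58 CPM). With both alleles it had 4, 0 and 69 counts (0.44, 0 and 3.79 CPM), so MYC-OE SETD2-KO 1 and 2 lay below every MYC-OE library and MYC-OE SETD2-KO 3 lay above MYC-OE 1 alone. As a share of all counts Timp1 was 346 times higher in MYC-OE than in WT (95% exact interval 167 to 862, counting error only). It lies inside Syn1, on the other strand and with 0 shared exon bases, and Syn1 stood at no more than 0.38 CPM (scaled by total counts).

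Timp2 (chromosome 11, 118301061 to 118355411, - strand), which binds Mmp14, stood at 29.33, 24.67 and 40.39 CPM in WT and 38.83, 36.92 and 45.22 CPM in SETD2-KO. It stood at 33.62, 89.45 and 104.28 CPM in MYC-OE and 58.22, 40.14 and 118.3 CPM in MYC-OE SETD2-KO. As for Mmp14, the libraries of set 3 with the MYC construct were the highest, and MYC-OE 1 lay within the WT range.

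Timp3 (chromosome 10, 86300412 to 86349505, + strand), the inhibitor that is held in the matrix and also blocks Adam17, was the most abundant of the 9 genes. It stood at 3166.02, 3461.1 and 3502.25 CPM in WT, 3083.94, 3746.75 and 1328.5 in SETD2-KO, 1967.36, 491.59 and 448.98 in MYC-OE, and 3098.19, 2218.26 and 1004.86 in MYC-OE SETD2-KO. Among all genes of a library it ranked between 17 and 35 by CPM in 9 libraries, and at 100, 110 and 47 in MYC-OE 2, MYC-OE 3 and MYC-OE SETD2-KO 3. All MYC-OE libraries lay below all WT libraries, and in each group with libraries in set 3 those were the lowest. Timp3 lies inside Syn3, on the other strand, with 1733 exon bases (21.3%) shared. Syn3 stood at 4.89 to 41.22 CPM by total counts, and use of strand in the counting is a detail not given in the sources used here.

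Plau (chromosome 14, 20836662 to 20843388, + strand) was nearly even in WT, at 353.39, 353.36 and 369.28 CPM, and stood at 247.56, 304.93 and 608.52 CPM in SETD2-KO. It stood at 446.06, 346.57 and 280.34 CPM in MYC-OE and at 164.87, 283.5 and 171.03 CPM in MYC-OE SETD2-KO, the group with the lowest mean (206.5 ± 66.78 CPM, SD, n = 3). Its receptor Plaur (chromosome 7, 24458721 to 24475967, + strand) stood at 2.93, 1.64 and 4.81 CPM in WT, 3.59, 3.95 and 4.97 in SETD2-KO, 4.01, 8.06 and 9.03 in MYC-OE and 14.53, 9.47 and 25.1 in MYC-OE SETD2-KO. On this TMM scale every MYC-OE SETD2-KO library was thus above every other library for the receptor, in both of its counting sets. Against MYC-OE alone, 5.86% of all genes were higher without overlap on this scale. By total counts MYC-OE SETD2-KO 2 (8.44 CPM) was below MYC-OE 2 and 3 (11.65 and 13.51 CPM).

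Mmp7 and Plaur are the genes, of the 6 that could be searched, with a match to any of 3 motifs searched before a RefSeq start, and the last 100 bases before their first starts (GRCm38.p6) are shown for that reason, with the match in capitals. Of the 9 genes, 6 had an entry (Mmp7, Mmp14, Timp1, Timp2, Timp3 and Plaur). The motifs, read on both strands over 250 bases before the start, were the AP-1 letters TGANTCA, the TCF/LEF letters ATCAAAG and the E-box CACGTG, which 6.75%, 3.21% and 6.02% of 32851 such windows held. Mmp7 had an AP-1 match 63 bases before its first start and Plaur 69 bases before its own. Mmp7 has another RefSeq start, whose window lies in the transcript from the first and held ATCAAAG 247 bases and CACGTG 50 bases before it. The windows of Mmp14, Timp1, Timp2 and Timp3 held none of the 3. A match is a string of letters, not a measured site.
Mmp7, chr9:7691990-7692089, + strand: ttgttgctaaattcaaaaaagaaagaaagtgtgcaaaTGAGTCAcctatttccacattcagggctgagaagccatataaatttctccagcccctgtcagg
Plaur, chr7:24462383-24462482, + strand: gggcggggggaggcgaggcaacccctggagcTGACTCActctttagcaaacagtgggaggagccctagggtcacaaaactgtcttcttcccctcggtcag

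Per kilobase of the isoform length in the deposited table, which lets genes be set side by side, Timp3 made up 80.49 to 82.1% of the summed CPM of the 9 genes in WT. Its share was 84.25, 84.53 and 50.12% in SETD2-KO, 66.43, 26.76 and 24.55% in MYC-OE and 86.54, 76.77 and 47.5% in MYC-OE SETD2-KO. The summed CPM per kilobase of the 3 inhibitors was 216.5, 288.3 and 181 times that of the 4 metalloproteinases in WT and 160.3, 231 and 47.4 times in SETD2-KO. This ratio was 53.7, 1.725 and 1.441 in MYC-OE and 91.82, 84.22 and 2.237 in MYC-OE SETD2-KO. In the 3 libraries with the lowest ratios Mmp7 was the most abundant metalloproteinase, with 73.94, 73.57 and 75.58% of their sum, and in the other 9 it was Mmp14. Plau stood 49.77 to 155.9 times above Plaur per kilobase in WT and SETD2-KO, 80.36, 31.06 and 22.43 times in MYC-OE and 8.2, 21.64 and 4.924 times in MYC-OE SETD2-KO. These are ratios of RNA levels. In bulk samples fewer cells of a type and less RNA per cell cannot be told apart.

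**Figure D2:**
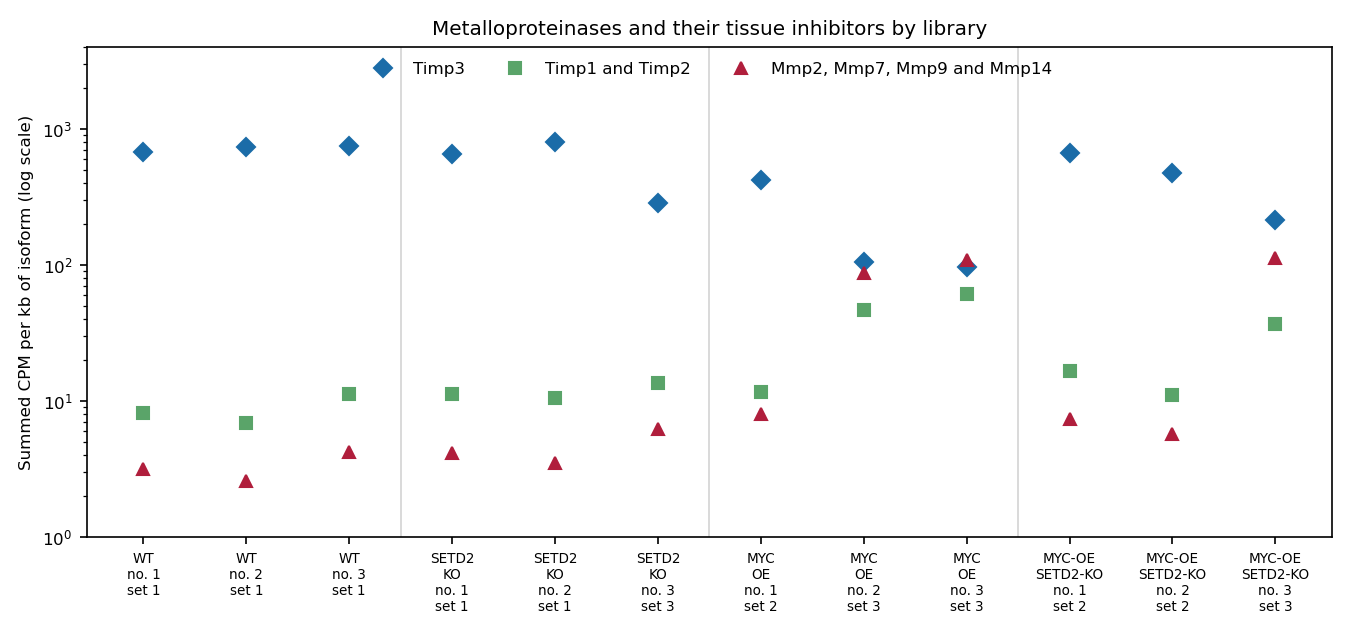
Summed TMM-scaled CPM per kilobase of isoform (log axis) of Timp3, of Timp1 and Timp2, and of the 4 metalloproteinases, by library. The metalloproteinases were below Timp3 in MYC-OE 2 (87.96 against 105.0) and above it in MYC-OE 3 (108.9 against 95.92). The inhibitors' sum was 1.725 and 1.441 times that of the metalloproteinases in these 2 libraries.

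SETD2-KO was compared with WT, which asks what differs when Cre acts on floxed Setd2. None of the 9 genes was called, and none of the 17019 genes tested was (0.0%), by group or with the set term (edgeR). At an unadjusted p under 0.05 the counts were 0 of the 9 and 495 of the 17019 genes. DESeq2, run on all 44792 gene symbols without the filter on low counts, called 0 of the 9 and 59 of the 44792. Timp1 had the lowest p of the 9, with a difference of 2.52 ± 1.39 (edgeR adjusted p = 1). On the TMM scale it was the only one whose groups did not overlap, a pattern of higher values that 3.22% of all genes had. By total counts Mmp2 and Timp1 were higher without overlap, as 9.91% of all genes were. Within set 1, SETD2-KO 1 and 2 were above the WT libraries by 1.25 (log2) for Timp1 and 0.45 for Mmp2. They differed by 0.01 for Timp3 and -0.38 for Plau, whereas SETD2-KO 3 was 1.36 lower for Timp3 and 1.15 higher for Plau than the other libraries of its group.

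MYC-OE was compared with WT, which share no counting set. Timp1, Mmp9 and Mmp2 rose, and none of the 9 fell. Timp1 rose by 7.52 ± 1.59 (edgeR adjusted p = 0.0416), Mmp9 by 3.45 ± 0.86 (0.0447) and Mmp2 by 2.39 ± 0.58 (0.0447). These 3 of 9 stand against 7.99% of all genes called (957 rose and 402 fell). The 9 genes were chosen with earlier results of these data known, so this is a description and not a test of the set. Timp1, Mmp9 and Mmp7 also passed the filter on low counts only through libraries with the MYC construct, where they are high. The median difference was 2.39 over the 9 genes and -0.00 over all genes tested. Mmp14 (2.54 ± 0.78, edgeR adjusted p = 0.0635), Mmp7 (9.41 ± 2.93, 0.0659), Timp2 (1.27 ± 0.46, 0.0903), Timp3 (-1.80 ± 0.70, 0.105), Plaur (1.16 ± 0.49, 0.121) and Plau (-0.00 ± 0.36, 0.994) were not called.

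The MYC-OE calls depended on single libraries. Without WT 1, WT 2 or WT 3, without MYC-OE 2 or MYC-OE 3, without SETD2-KO 1, or without MYC-OE SETD2-KO 1, 0 of the 9 were called, and without SETD2-KO 2 only Timp1 was. Without MYC-OE 1, 7 were called, with Timp3 as the fall, and without MYC-OE SETD2-KO 3, 6 were called. Over these left-out libraries the count of all genes called moved between 1 and 5264, so that the count of 3 moved along with it. DESeq2, run on all 44792 gene symbols without the filter on low counts, called 7 of the 9, all but Plau and Plaur. Timp3 was the fall, and 4747 of the 44792 symbols were called. Without the libraries of set 3 the calls were Mmp7 and Timp1, and with terms for set and Y-chromosome transcripts Timp1 alone was called. With the set term 2.39% of all genes were called, and Timp1 (6.56 ± 1.0, adjusted p = 0.0241), Mmp14 (2.01 ± 0.37, 0.0321) and Mmp2 (3.07 ± 0.68, 0.0499) rose, while Mmp9 (2.59 ± 0.99, 0.194) was not called. Groups did not overlap for Mmp2, Mmp7, Mmp9, Mmp14 and Timp1, which were higher in all MYC-OE libraries as 25.5% of all genes were, and for Timp3, which was lower as 25.0% were. Scaled by total counts, where the median of all genes was 0.76 instead of -0.00, all but Timp3 were higher without overlap, as 54.6% of all genes were. Plau is the gene whose direction turned with the setting, at 0.73 ± 0.39 by total counts and -1.31 ± 0.37 with the set term.

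Within set 3, MYC-OE 2 and 3 were above SETD2-KO 3, which lacks the MYC construct and carries floxed Setd2, by 7.68 (log2) for Mmp7, 4.54 for Timp1, 2.63 for Mmp2, 1.97 for Mmp9, 1.91 for Mmp14 and 1.09 for Timp2. They were below it by -1.50 for Timp3 and -0.96 for Plau, where the median of all genes was -0.01. SETD2-KO 3 held Xist, while MYC-OE 2 and 3 held Y-chromosome transcripts, so genotype and sex cannot be told apart in this contrast. Within the MYC-OE group, MYC-OE 2 and 3 were above MYC-OE 1 by 4.81 for Mmp7, 3.47 for Timp1, 3.03 for Mmp9 and 2.27 for Mmp14, and 2.07 lower for Timp3. The genes thus differed between libraries of 1 genotype as well as between genotypes.

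**Figure D3:**
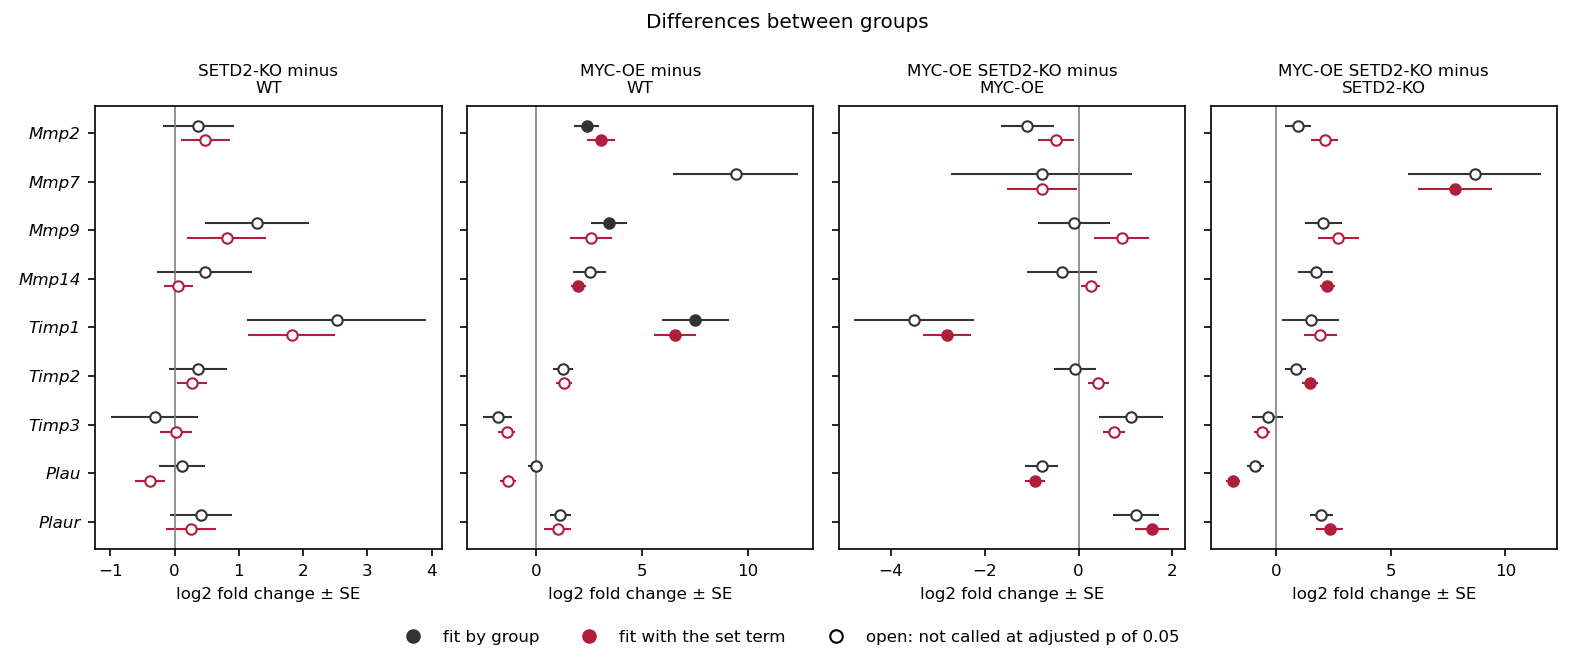
Log2 fold change ± SE of each gene in 4 comparisons (edgeR, n = 3 libraries per group), by group in black and with the set term in red. Filled points were called, and the panels have their own x ranges. Mmp7 is left out of the first panel, where both groups had at most 5 counts, and its estimate with the set term is left out of the second, where the fit gave no usable error. Timp1 lies at 7.52 in MYC-OE against WT and at -3.50 in MYC-OE SETD2-KO against MYC-OE.

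MYC-OE SETD2-KO was compared with MYC-OE, which differ in the floxed Setd2 allele and share sets 2 and 3. The groups also differ in sex, since all MYC-OE libraries held Y-chromosome transcripts and MYC-OE SETD2-KO 1 and 3 held Xist instead. By group none of the 9 was called, where 0.176% of all genes were (9 up and 21 down). The count at an unadjusted p under 0.05 was 2 of 9, against 2195 of the 17019 genes. DESeq2 called 0 of 9 and 784 of 44792 gene symbols. With the set term Timp1 fell by 2.80 on the log2 scale (SE 0.51, edgeR adjusted p = 0.0184), Plau fell by 0.93 (SE 0.22, 0.0399) and Plaur rose by 1.57 ± 0.37 (0.04), where 5.51% of all genes were called. By group these were -3.50 ± 1.28 for Timp1 (adjusted p = 0.284), -0.79 ± 0.36 for Plau (0.397) and 1.22 ± 0.49 for Plaur (0.326).

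All 3 had the same direction in both sets. The set-term calls that picked them rest on these same libraries, so this is no separate support. In set 3 the Setd2 allele and sex cannot be told apart. In set 2 MYC-OE SETD2-KO 1 held Xist, while MYC-OE 1 held Y-chromosome transcripts. Timp1 differed by -3.29 in set 2 (MYC-OE SETD2-KO 1 and 2 against MYC-OE 1) and by -2.61 in set 3 (MYC-OE SETD2-KO 3 against MYC-OE 2 and 3). Plau differed by -1.04 and -0.87, and Plaur by 1.53 and 1.55, in the same order of sets. Mmp7 differed by -4.62 in set 2 and 0.24 in set 3, and Mmp9 by 1.95 and 0.03, so neither kept its size across the sets. With terms for both the set and Y-chromosome transcripts none of the 9 was called. The receptor Plaur was higher in every MYC-OE SETD2-KO library than in every MYC-OE library, as 5.86% of all genes were, but not when scaled by total counts. On that scale Plau was lower without overlap instead, as 15.4% of all genes were. Timp3 (1.12 ± 0.69, adjusted p = 0.556) and Mmp2 (-1.09 ± 0.56, 0.455) were not called.

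MYC-OE SETD2-KO was also compared with SETD2-KO, which asks what differs with the MYC construct where Setd2 is floxed. By group none of the 9 was called, and no gene was (0.0%). At an unadjusted p under 0.05 the counts were 5 of 9 and 1624 of the 17019 genes. DESeq2 called 1 of 9, Plaur, and 186 of 44792 gene symbols. Values by group were 8.66 ± 2.90 for Mmp7 (edgeR adjusted p = 0.505), 2.06 ± 0.81 for Mmp9 (0.505), 1.97 ± 0.50 for Plaur (0.503), 1.72 ± 0.76 for Mmp14 (0.517) and -0.91 ± 0.36 for Plau (0.505). Mmp9 and Plaur were higher without overlap, as 5.56% of all genes were.

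With the set term Mmp7 (7.79 ± 1.60, edgeR adjusted p = 0.024), Plaur (2.34 ± 0.59, 0.04), Mmp14 (2.22 ± 0.33, 0.00769) and Timp2 (1.47 ± 0.34, 0.0313) rose and Plau fell by 1.87 (SE 0.31, 0.0117), where 8.85% of all genes were called. The only set with both groups is set 3, with 1 library each. There MYC-OE SETD2-KO 3 was above SETD2-KO 3 by 7.91 for Mmp7, 2.32 for Plaur, 2.26 for Mmp14, 1.99 for Mmp9, 1.93 for Timp1, 1.82 for Mmp2 and 1.39 for Timp2, and differed by -1.83 for Plau and -0.40 for Timp3. Both of these libraries held Xist.

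The interaction, the difference between the Setd2 effect with and without the MYC construct, was called for none of the 9, where 0.0118% of all genes (2) were called by group and 0.106% with the set term. Timp1 had the largest value among the 9, -6.02 ± 1.88 (edgeR adjusted p = 0.484), and was the 1 gene of 9 at an unadjusted p under 0.05, against 1739 of all genes. DESeq2 called Timp1 lower, among 285 of 44792 gene symbols. With the set term it was -4.63 ± 0.84 (adjusted p = 0.108).

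Genes that act with these 9 were read from lists, and by group they were called only in MYC-OE against WT, where 7.99% of all genes were. Of 11 other metalloproteinases tested 1 rose, Mmp12, the macrophage elastase, by 5.4 ± 1.04 (edgeR adjusted p = 0.0407). It stood at 0.17 to 0.44 CPM in WT, 2.11, 23.13 and 18.61 in MYC-OE and 0.38 to 2.47 in MYC-OE SETD2-KO, and it was also called with the set term (4.43, adjusted p = 0.0344). Of 21 matrix proteins, the substrates, 6 rose and 0 fell, led by Col1a2, Col1a1 and Col3a1 (2.56 ± 0.50, 4.41 ± 0.84 and 3.78 ± 0.70, each at 0.0407). Col1a1 stood at 3.88 to 5.67 CPM in WT, 28.97, 125.41 and 158.82 in MYC-OE, and 2.31, 2.27 and 10.11 in MYC-OE SETD2-KO. Of the 21, 3 rose with the set term, and Col3a1 was not called (4.3, adjusted p = 0.0643). In MYC-OE SETD2-KO against MYC-OE none was called by group, and with the set term 1 rose and 7 fell, among them Col3a1 (-3.72, edgeR adjusted p = 0.0152) and Col1a1 (-3.74, 0.00656). Of 10 proprotein and surface proteases 1 rose, Bmp1, which trims procollagens, by 1.9 ± 0.50 (0.0475), and it was not called with the set term (1.4, adjusted p = 0.211).

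None was called of 16 Adam and Adamts proteases, 7 other protease inhibitors, 11 genes of the plasminogen system and 7 cathepsins. Plat, the other plasminogen activator, differed by 2.72 ± 0.63 in MYC-OE SETD2-KO against MYC-OE (edgeR adjusted p = 0.136), at 650.02, 349.26 and 90.18 CPM against 50.35, 51.34 and 63.1. In the same libraries podocyte markers stood at 2404, 2203 and 134.5 CPM against 265.8, 134.8 and 139.5, and endothelial markers (9 genes) at 1571, 835.2 and 476.7 CPM against 460.5, 310.1 and 332.3. Their part in the Plat levels was not tested. Anxa2, a plasminogen binding protein, was not called in MYC-OE against WT (9.13 ± 2.78, edgeR adjusted p = 0.0627) and stood at 0 to 0.46 CPM in set 1 and 59.92 to 195.22 in set 3.

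Markers of other cell types differed between libraries too. Summed macrophage markers (11 genes, none at 0) stood at 43.02 to 67.7 CPM in WT, 59.81 to 185.1 in SETD2-KO, 153.8, 1244 and 1297 in MYC-OE and 161.4 to 366.7 in MYC-OE SETD2-KO. Of these 8 rose in MYC-OE against WT, led by C1qa, C1qb and C1qc (4.27, 4.05 and 4.07, each at an edgeR adjusted p of 0.0407). Of the 11, 1 rose with the set term, and C1qa, C1qb and C1qc were not called (adjusted p = 0.115, 0.0914 and 0.064). Fibroblast and mural markers (10 genes, none at 0) stood at 102.4 to 142.7 CPM in WT, 137.8 to 288.2 in SETD2-KO, 163.3, 377.9 and 417.4 in MYC-OE and 129.7, 116.4 and 466.6 in MYC-OE SETD2-KO. Neutrophil markers (8 genes) stood at 2.112 to 6.152 CPM in WT, 5.533 to 38.12 in SETD2-KO, 3.905, 41.69 and 40.91 in MYC-OE and 76.38, 58.32 and 41.85 in MYC-OE SETD2-KO, with Mpo at 0 in the first 3 groups. Lymphocyte markers (8 genes) stood at 5.839 to 15.29 CPM in WT, 3.594 to 4.473 in SETD2-KO, 29.08, 88.97 and 54.18 in MYC-OE and 7.03 to 8.585 in MYC-OE SETD2-KO. Of these, 4 of 8 rose in MYC-OE against WT by group and 2 of 8 with the set term.

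Tubular injury markers (9 genes) stood at 1093 to 1326 CPM in WT, 1368 to 1462 in SETD2-KO, 1903, 5750 and 6606 in MYC-OE and 3383, 1248 and 6947 in MYC-OE SETD2-KO. Of these, 4 of 9 rose in MYC-OE against WT by group and 2 of 9 with the set term. Proximal tubule markers stood at 24240, 25470 and 8885 CPM in SETD2-KO, 12450, 1902 and 1602 in MYC-OE, and 22240, 17450 and 293.3 in MYC-OE SETD2-KO. Epithelial markers (5 genes) stood at 1085 to 2127 CPM over all libraries as a sum. In MYC-OE against WT 2 of the 5 rose by group, Krt18 (3.33 ± 0.80, edgeR adjusted p = 0.0447) and Krt8 (1.71 ± 0.46, 0.0488). With the set term 1 of the 5 rose, Krt18 (3.13, edgeR adjusted p = 0.0438). The part of these cell types in the levels of the 9 genes was not tested.

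**Figure D4:**
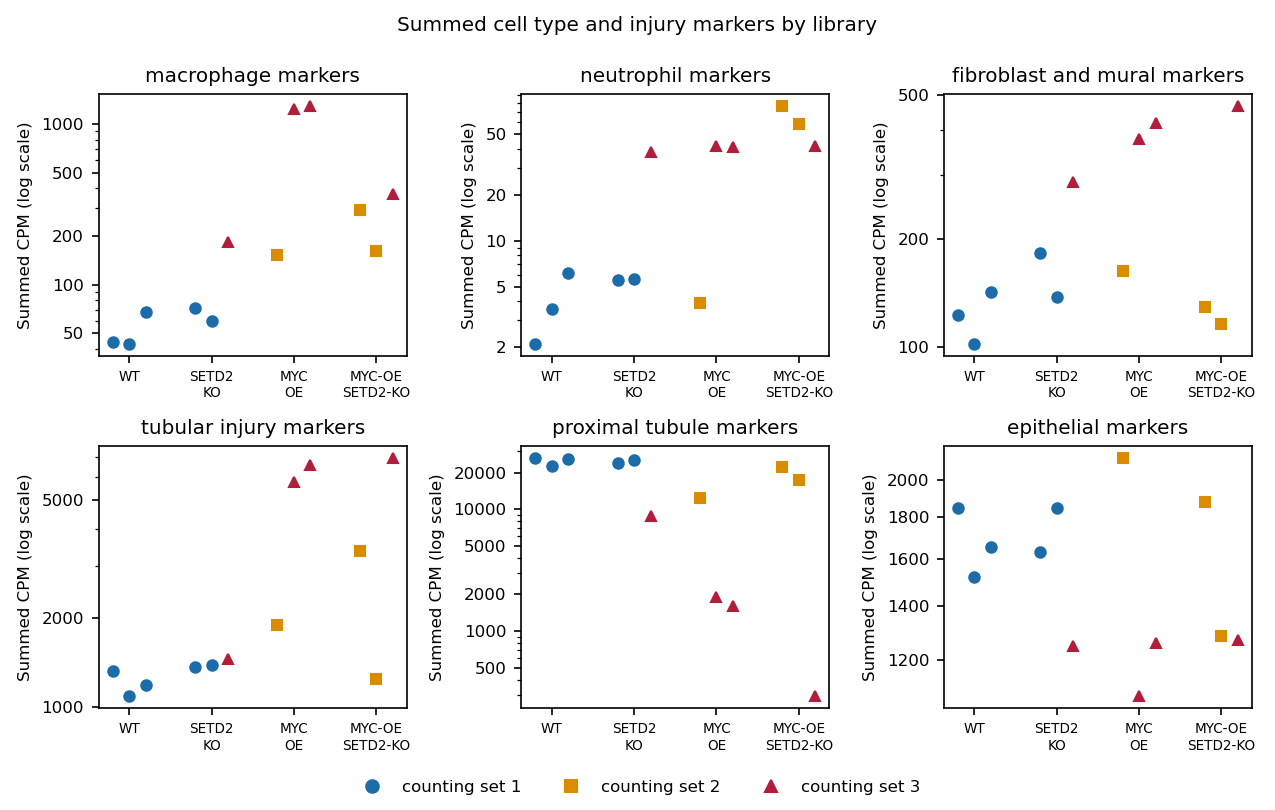
Summed TMM-scaled CPM (log axes with their own ranges) of 6 marker lists by group and library, with counting sets by shape and colour. Macrophage markers were highest in MYC-OE 2 and 3, at 1244 and 1297 CPM, and proximal tubule markers lowest in MYC-OE SETD2-KO 3, at 293.3 CPM.

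The genes most like each of the 9 over the 12 libraries were ranked by the root mean square difference of log2 CPM centred on each gene's mean, among 12497 genes of mean log2 CPM of at least 1. Mmp7 was closest to Lcn2, Igj and C3 (1.21, 1.5 and 1.54, where the median gene was at 4.03), and Timp1 to Krt19, Aoc1 and Aldh18a1 (0.93, 0.94 and 0.97, median 2.69). Mmp14 was closest to Cpne8, Isg20 and Ctsc (0.12, 0.22 and 0.27, median 1.35), Mmp9 to Tlr13 (0.4, median 1.63) and Mmp2 to Itga2 (0.31, median 1.15). Timp2 was closest to Sbno2 (0.14, median 0.87), Timp3 to Slc6a8 (0.16, median 1.06), Plau to Gipc2 (0.22, median 0.68) and Plaur to F2r (0.31, median 1.14). Closeness here is over libraries that also share a counting set.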

How the data were processed

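The authors deposited 1 table of raw whole-number counts of reads per gene with gene positions and an isoform length. Tools listed by the submitters' processing notes, without roles, are HISAT2, StringTie, FastQC, Trimmomatic 0.35, MACS2 2.1.1 and cutadapt 1.9.1, beside the builds mm10 and GRCm38. Poly(A) selection, a directional kit and paired-end reads are per the labels' protocols. Counting program, strand setting and annotation are details not given in the sources used here. Without strand, reads of genes that overlap on opposite strands cannot be told apart.

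Counts were tested in R 4.3.3 with edgeR 4.0.16 (filterByExpr, TMM factors of 0.79 to 1.5, quasi-likelihood F test). A single model over the 12 libraries had 1 coefficient per group, 8 residual degrees of freedom and a biological coefficient of variation of 0.58. The set term changed these to 6 and 0.27. Log2 CPM used a prior count of 2. Counting sets were cut at 10000 and 100 CPM of mitochondrial ribosomal RNA. The floor of a library is 3 counts. DESeq2 1.42.0, other scalings and filters, a replicate block, terms for set and Y-chromosome transcripts, fits without set 3 and without each library were alternatives. DESeq2 was run on all 44792 gene symbols, without the filter on low counts. The fits were checked on simulated data. Overlaps of exons were read from GENCODE M21 and promoter sequences from RefSeq (GRCm38.p6). Equal replicate numbers do not pair libraries of different groups.

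The 9 genes, the lists and the alternatives were chosen with earlier results of these data known. All 9 genes are named. From each list at most the 3 called genes with the smallest adjusted p are eligible to be named, or, with none called, the 2 with the largest difference at a mean log2 CPM of at least 1, and for likeness the 3 closest genes.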

Additional observations from a re-analysis of the deposited data

Results flagged for a closer look

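Timp1 and Mmp2 were flagged because, library by library, the difference with floxed Setd2 and Cre ran in opposite directions without and with the MYC construct. Opposite signs by group are not particular to them. Mmp9 (1.28 and -0.10), Mmp14 (0.47 and -0.35) and Timp2 (0.36 and -0.07) had them too. So did Timp3 (-0.31 and 1.12) and Plau (0.11 and -0.79), while Mmp7 and Plaur did not. None of these differences was called by group. For Timp1 every SETD2-KO library was above the WT mean of log2 CPM and every MYC-OE SETD2-KO library was below the MYC-OE mean. The difference between these effects was -6.02 on the log2 scale and was not called (edgeR adjusted p = 0.484). For Mmp2 the same held, with a difference of -1.45 (edgeR adjusted p = 0.517). Within counting sets, MYC-OE SETD2-KO differed from MYC-OE for Mmp2 by -0.20 in set 2 and -0.81 in set 3. In set 2, MYC-OE SETD2-KO 1 (7.7 CPM) was above MYC-OE 1 (5.91 CPM). MYC-OE has more of its libraries in set 3, where Mmp2 was higher in both groups. The share of all genes with such opposite directions was not counted.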

How the results depend on the processing

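Timp1, Mmp9 and Mmp2 kept their direction in MYC-OE against WT under every alternative run, and were called in 15, 10 and 12 of 22. Of all fold changes of the 9 genes over all alternatives, 849 kept direction and side of the threshold, 39 gained a call, 29 lost one and 60 turned. The causes were not tested.

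For MYC-OE against WT the 9 genes had 7 calls by total counts, 7 by DESeq2, 5 with only the 2 groups compared, 6 with the replicate block and 1 with set and Y terms, and 0 to 7 without single libraries. All genes called there numbered 5048 by total counts, 4747 by DESeq2, 4982 with only those groups, 2279 with the replicate block, 407 with the set term, 26 with set and Y terms, 2946 without set 3, and 1 to 5264 without single libraries. By total counts 4816 rose and 232 fell. Plau turned to 0.03 with DESeq2 size factors, 0.73 by total counts, 0.01 with a filter of 1 CPM in 3 libraries, 0.02 by DESeq2, 0.02 with only those groups, 0.01 with the replicate block and 0.35 without set 3, and spanned -0.18 to 0.14 without single libraries.

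For SETD2-KO against WT all genes called numbered 59 by DESeq2. Mmp7 was 0.22 by total counts, 0.59 by DESeq2 and 0.53 with the replicate block, and -3.52 to 3.38 without single libraries. Timp3 was 0.02 with the set term, 0.02 with set and Y terms and 0.04 without set 3, and -0.62 to 0.02 without single libraries. Plau was -0.38, -0.38 and -0.36 in the same settings, and -0.38 to 0.34.

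For MYC-OE SETD2-KO against MYC-OE the 9 genes had 3 calls with the set term. All genes called numbered 15 by total counts, 784 by DESeq2, 0 with only the 2 groups compared, 17 with the replicate block, 938 with the set term, 15 with set and Y terms, 707 without set 3, and 3 to 578 without single libraries. Mmp9 was 0.08 with the replicate block, 0.92 with the set term, 1.47 with set and Y terms and 2.07 without set 3, and -0.62 to 0.24 without single libraries. Mmp14 was 0.26, 0.13 and 0.15 in the last 3 of these, and -1.70 to 0.06. Timp2 was 0.42, 0.11 and 0.52, and -0.65 to 0.24.

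For MYC-OE SETD2-KO against SETD2-KO the 9 genes had 1 call by DESeq2, 5 with the set term and 7 with set and Y terms. All genes called numbered 186 by DESeq2, 1506 with the set term, 1749 with set and Y terms, 1336 without set 3, and 0 to 411 without single libraries. Without set 3 Mmp7 was 0.00 and Timp1 -0.48, and without single libraries they were -3.44 to 12.12 and -1.18 to 2.17.

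For the interaction the 9 genes had 1 call by DESeq2. All genes called numbered 1 by total counts, 285 by DESeq2, 1 with the replicate block, 18 with the set term, 1 with set and Y terms, 166 without set 3, and 0 to 31 without single libraries. With the set term Mmp7 was 2.78, Mmp9 0.11, Mmp14 0.21 and Timp2 0.15. With set and Y terms Mmp9 was 0.66 and Mmp14 0.07, and without set 3 Mmp9 was 1.25, Mmp14 0.08 and Timp2 0.24. Mmp7 was -12.86 to 2.76 without single libraries.

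Libraries with the same replicate number did not all deviate together: over 18 pairs r ran from -0.6 to 0.68, with 11 over 0.1, so the replicate block pairs by number alone. Few counts limit Mmp7 and Timp1 in WT and SETD2-KO, and 3 counts were 0.08545 to 0.3787 CPM.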
